A study of Mus musculus with 8 samples.

Results

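The nuclear genes for subunits of the 5 oxidative phosphorylation complexes were followed in injured and uninjured mouse cortex on 2-colour microarrays. Members were all probes whose RefSeq-matched symbol began with Ndufa, Ndufb, Ndufc, Ndufs or Ndufv and a digit, with Uqcr, with Cox4 to Cox8 or with Atp5, or was Sdha, Sdhb, Sdhc or Sdhd. This rule, which uses no measured value, took 103 of 56605 probes and 83 genes. They comprised 37 genes of complex I, 4 of complex II, 8 of complex III, 17 of complex IV and 17 of complex V. Of the 103 probes, 101 were well above background in all 16 animals and 2 in 0 animals. Cox8c, a testis form of a complex IV subunit, was the 1 gene with no probe above background, so 82 genes were tested. RefSeq lists 87 protein-coding genes under these names, and Cox5b, Ndufb1, Ndufb4b and Ndufb4c are the 4 without a named probe here. Ndufa4 was counted with complex I by its name, although it is known as a subunit of complex IV.

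Total RNA came from the right fronto-parietal cortex of 16 mice in 4 groups of 4. The groups were floxed controls, controls lacking Il6 derived from microglia, floxed mice with a cryolesion, and mice lacking microglial Il6 with a cryolesion. A cryolesion is a local freeze injury, and Il6 encodes the cytokine interleukin-6. The dissected cortex was ipsilateral, so cryolesioned samples hold the injured side. The Cre line, the deleted part of Il6, strain, age, sex and time after injury are not given in the sources used here. Each of 8 arrays paired 2 animals of different groups. The pairings closed into a loop of 4 sides, each run on 2 arrays with the dyes exchanged. The control side paired both control groups and the lesion side both cryolesioned groups. The floxed-lesion side set floxed cryolesioned against Il6-deficient control mice, and the deficient-lesion side set Il6-deficient cryolesioned against floxed control mice. The mean cryolesion effect over both genotypes therefore equals the mean of the 4 arrays of these last sides, and each effect within a genotype runs through the other genotype.

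Oxidative phosphorylation makes most of the ATP of neurons. Complexes I and II pass electrons from NADH and succinate to ubiquinone, complex III passes them to cytochrome c, and complex IV, cytochrome c oxidase, passes them to oxygen. Complexes I, III and IV pump protons across the inner mitochondrial membrane, and complex V, the ATP synthase, uses that gradient. Nuclear genes encode most subunits, and their promoters are known targets of the nuclear respiratory factors NRF1 and NRF2 (GABP, of the ETS family), of YY1 and of the oestrogen-related receptors (ERR).

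Promoter sequences of 4 complex IV genes are printed because these genes gave values past the threshold after cryolesion and differ in the letters that these factors are known to bind. Each is the RefSeq window on GRCm38.p6, 250 bases before to 50 bases after the annotated start, written 5′ to 3′ on the gene's strand, here the minus strand for all 4. Cox6a1 lies at chr5:115348909-115349208, Cox8a at chr19:7217567-7217866, Cox8b at chr7:140900397-140900696 and Cox7a2l at chr17:83514284-83514583. Capitals mark matches, on either strand, to GCGCANGCG (NRF1), CCGGAAG (ETS), CAAGGTCA (ERR), AAGATGGCG (YY1) or TATAAA (the TATA box), and matches to different motifs did not overlap in these windows.
Cox6a1: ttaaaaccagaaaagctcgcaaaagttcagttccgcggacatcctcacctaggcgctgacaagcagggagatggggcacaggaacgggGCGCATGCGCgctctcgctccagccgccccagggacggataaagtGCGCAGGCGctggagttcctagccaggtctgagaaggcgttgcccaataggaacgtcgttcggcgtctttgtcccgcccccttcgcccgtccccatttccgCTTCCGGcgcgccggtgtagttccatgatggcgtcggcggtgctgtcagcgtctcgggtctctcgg
Cox8a: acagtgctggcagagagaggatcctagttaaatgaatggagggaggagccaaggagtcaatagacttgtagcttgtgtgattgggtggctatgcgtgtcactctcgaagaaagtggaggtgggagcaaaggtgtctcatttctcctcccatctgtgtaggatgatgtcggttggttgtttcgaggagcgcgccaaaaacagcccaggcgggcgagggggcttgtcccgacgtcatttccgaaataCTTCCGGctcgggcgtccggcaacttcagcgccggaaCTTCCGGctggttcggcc
Cox8b: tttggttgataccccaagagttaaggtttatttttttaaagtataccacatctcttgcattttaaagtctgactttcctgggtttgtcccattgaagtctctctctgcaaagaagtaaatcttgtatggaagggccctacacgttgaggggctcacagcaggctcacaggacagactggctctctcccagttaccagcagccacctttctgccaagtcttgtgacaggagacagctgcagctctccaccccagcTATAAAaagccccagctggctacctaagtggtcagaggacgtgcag
Cox7a2l: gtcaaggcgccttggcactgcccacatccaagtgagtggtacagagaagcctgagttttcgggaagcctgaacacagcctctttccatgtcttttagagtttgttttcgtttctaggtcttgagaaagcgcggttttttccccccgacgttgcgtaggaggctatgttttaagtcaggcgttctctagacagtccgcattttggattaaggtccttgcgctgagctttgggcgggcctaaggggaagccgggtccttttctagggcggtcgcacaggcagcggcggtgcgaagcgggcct
The window of Cox6a1, the widely expressed form of subunit VIa, held 3 matches, of which 2 were NRF1 letters, 1 of them matching on both strands, and 1 was ETS letters in reverse orientation. The window of Cox8a, the widely expressed form of subunit VIII, held 2 reverse ETS matches. The window of Cox8b, the heart and muscle form of that subunit, held 1 match to the TATA letters. It began at position 5 after the annotated start, not before the start. The window of Cox7a2l, a factor in the assembly of respiratory supercomplexes, held 0 matches. No match says only that these letters are not in that window. A window was at hand for 67 of the 82 tested genes and for 27025 genes in all. NRF1 letters stood in 29.9% of the subunit windows and 7.03% of all windows, and ETS letters in 25.4% and 9.93%. YY1 letters stood in 10.4% and 1.64%, ERR letters in 5.97% and 1.76%, and TATA letters in 11.9% and 15.7%. At least 1 of the 4 activator motifs was found in 58.3% of 12 subunit genes that passed the threshold after cryolesion and in 52.7% of 55 that did not, against 18% of all genes. By complex, the share was 50% of 32 genes for complex I, 100% of 3 for II, 60% of 5 for III, 25% of 12 for IV and 73.3% of 15 for V. Complex IV had the lowest share, with windows for 12 of its 16 tested genes. Whether such letters bear on the cryolesion change was not tested.

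All arrays came from 1 slide and 1 scan. Per channel, 59.2% to 65.9% of probes rose well above background, and 0 spots were saturated. The median spot signal was 111 to 144 for Cy5, and for Cy3 it was 45 to 59. Il6 itself was detected above background in 3 of the 4 floxed mice with a cryolesion and in 0 of the other 12, with mean log2 intensities of 5.92 ± 0.06 in floxed controls, 5.90 ± 0.10 in Il6-deficient controls, 6.5 ± 0.27 in floxed cryolesioned and 6.13 ± 0.08 in Il6-deficient cryolesioned mice (SD, n = 4 each). Xist, the X-inactivation RNA of female cells, was detected above background in 3 floxed controls, in 1 Il6-deficient control and in 0 of the 8 cryolesioned mice, so sex was not balanced over the groups. All listed neuronal, astrocytic, oligodendrocytic and microglial markers were above background in every animal.

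After cryolesion, 15 of the 82 subunit genes were lower and 0 were higher at a Benjamini-Hochberg adjusted p under 0.05 in limma, over both genotypes. This is 18.3% of the subunit genes. Of all 29362 features tested, 11.9% passed in either direction, 5.87% lower and 6.02% higher. The median change of the subunit genes was -0.21 on the log2 scale against -0.009 for all features, and 79 of 82 values were below 0 against 52.4% of all features. With arrays centred on the median in place of loess, the median was -0.096 against -0.032 for all features, with 64 values below 0. When each channel was fitted on its own, the median was -0.125 with 69 below 0, and with the replicate number as a block in that fit it was -0.10 with 68 below 0. At an unadjusted p under 0.05, 41 subunit genes were lower and 0 higher, which is 50% of them against 15.1% of all features lower and 13.4% higher. On all 4 arrays that paired a cryolesioned with a control mouse, 29 genes were lower in the cryolesioned one and 0 were higher in it, or 35.4% against 17.9% of all features lower throughout and 14.7% higher throughout. In bulk tissue, fewer cells of a type and less RNA per cell cannot be told apart.

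**Figure D1:**
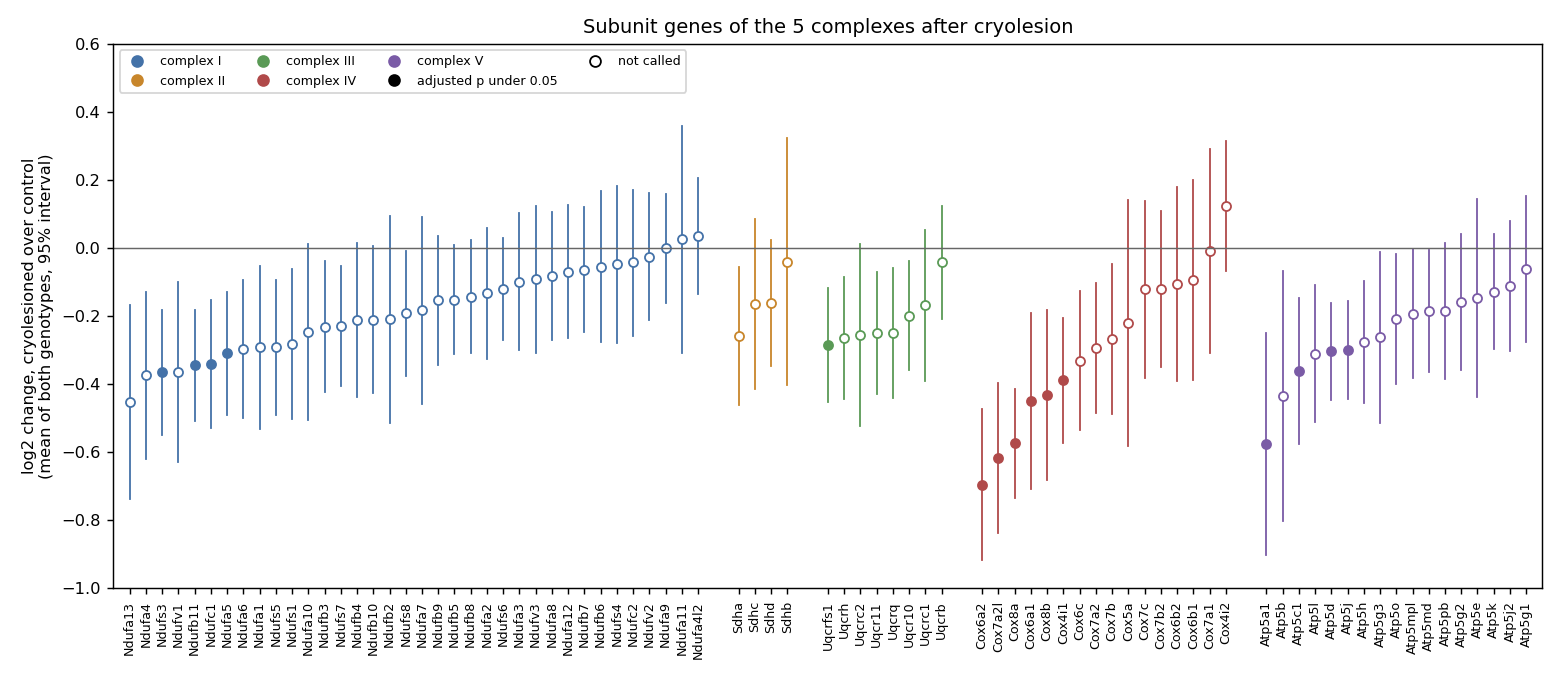
Change of 81 of the 82 tested subunit genes after cryolesion, as the log2 difference between cryolesioned and control mice averaged over both genotypes (vertical axis), ordered by size within complexes I to V (horizontal axis). Points are limma estimates, lines are 95% intervals, and filled points are the 15 genes with an adjusted p under 0.05. All filled points lie below 0, and Cox6a2, Cox7a2l, Cox8a and Atp5a1 lie lowest.

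Complex IV had the lowest median, -0.28, with 6 of 16 genes lower, against 5.87% of all features. The median of complex III was close, at -0.25, and whether the complexes differ was not tested. Cox6a2, the heart and muscle form of subunit VIa, read 11.08, 11.20, 11.32 and 11.39 on the log2 intensity scale in the floxed controls and 11.24, 11.27, 11.48 and 11.25 in the Il6-deficient controls. It read 10.61, 10.55, 10.99 and 10.89 in the floxed cryolesioned mice and 10.73, 10.99, 11.05 and 10.46 in the Il6-deficient cryolesioned mice. All 8 cryolesioned mice lay below all 8 controls. Here and below, levels of single animals still hold the dye effect of the gene, and each group holds animals of both dyes. The log2 change was -0.70 ± 0.09 (SE) with limma's adjusted p = 0.00668, so that the Cox6a2 signal fell by 38.2%.

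Cox7a2l, the supercomplex factor, read 14.45, 14.47, 14.45 and 14.63 in the floxed controls and 14.42, 14.40, 14.60 and 14.50 in the controls lacking microglial Il6. After cryolesion it read 13.84, 13.71, 14.15 and 13.94 in floxed and 14.03, 13.98, 14.21 and 13.94 in Il6-deficient mice. The groups again did not overlap by state, and the log2 change was -0.62 ± 0.09 (limma's adjusted p = 0.0100). Cox6a2 and Cox7a2l were the 2 of 82 genes, 2.44%, whose cryolesioned levels all lay below the control levels, against 1.6% of all features.

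Cox8a read 16.32, 16.55, 16.82 and 16.57 in floxed controls and 16.62, 16.33, 16.49 and 16.86 in Il6-deficient controls. It read 16.13, 15.88, 16.04 and 16.22 in floxed cryolesioned mice, all below every control, and 16.66, 16.41, 16.07 and 16.36 in Il6-deficient cryolesioned mice, which overlapped the controls. The log2 change of Cox8a was -0.57 ± 0.07 (limma's adjusted p = 0.00435), and all 4 arrays that paired the states gave a lower cryolesioned value, from -0.98 to -0.21. In the fit of each channel on its own, Cox8a had -0.40 (limma's adjusted p = 0.000872).

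The other 3 complex IV genes past the threshold overlapped between states. Cox6a1 spanned 16.86 to 17.33 in floxed and 16.98 to 17.36 in Il6-deficient controls, and 16.48 to 16.84 and 16.67 to 17.42 in the cryolesioned mice of each genotype. All 4 floxed cryolesioned mice lay below all 8 controls, while the Il6-deficient cryolesioned mice overlapped them, and Cox6a1 changed by -0.45 ± 0.11 with limma's adjusted p = 0.0423. Cox8b, a dim probe with group means between 6.5 and 7.19, changed by -0.43 ± 0.11 with limma's adjusted p = 0.0440. Cox4i1, the main form of subunit IV, spanned 15.67 to 16.01 and 15.66 to 16.02 in the controls, and 15.39 to 15.75 and 15.52 to 15.82 after cryolesion. Cox4i1 changed by -0.39 ± 0.08 with limma's adjusted p = 0.0244. Cox4i1 was lower in the cryolesioned mouse on 3 of the 4 arrays, with the first deficient-lesion array at 0.07. Cox5a, another regulatory subunit, had a similar direction on 3 of 4 arrays but a wide spread of 14.22 to 15.44 among the floxed controls. Its change of -0.22 ± 0.15 did not pass (limma's adjusted p = 0.40).

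Values differed among forms of the same subunit. Cox4i2, a form of subunit IV known from lung and from low oxygen, had the highest value of all 82 genes, 0.12 ± 0.08 (limma's adjusted p = 0.372), beside the fall of Cox4i1. Of the VIb forms, Cox6b1 had -0.095 ± 0.12 and the testis form Cox6b2 -0.11 ± 0.12, and neither passed. Of the VIIa forms, the muscle form Cox7a1 had -0.008 ± 0.13 and the widely expressed Cox7a2 -0.29 ± 0.08 (limma's adjusted p = 0.978 and 0.0597), while Cox7a2l fell. Both VIa forms and both measured VIII forms fell. Ndufa4 had -0.37 ± 0.10 and its low-oxygen relative Ndufa4l2 0.035 ± 0.07, and neither passed (limma's adjusted p = 0.0622 and 0.80). The probes of Cox4i2, Cox6b2 and Ndufa4l2 were dim, with group means of 7.84 to 7.97, 7.26 to 7.54 and 7.64 to 7.79. Those of Cox4i1 were 15.51 to 15.86. Whether 2 forms differ in their change was not tested.

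**Figure D2:**
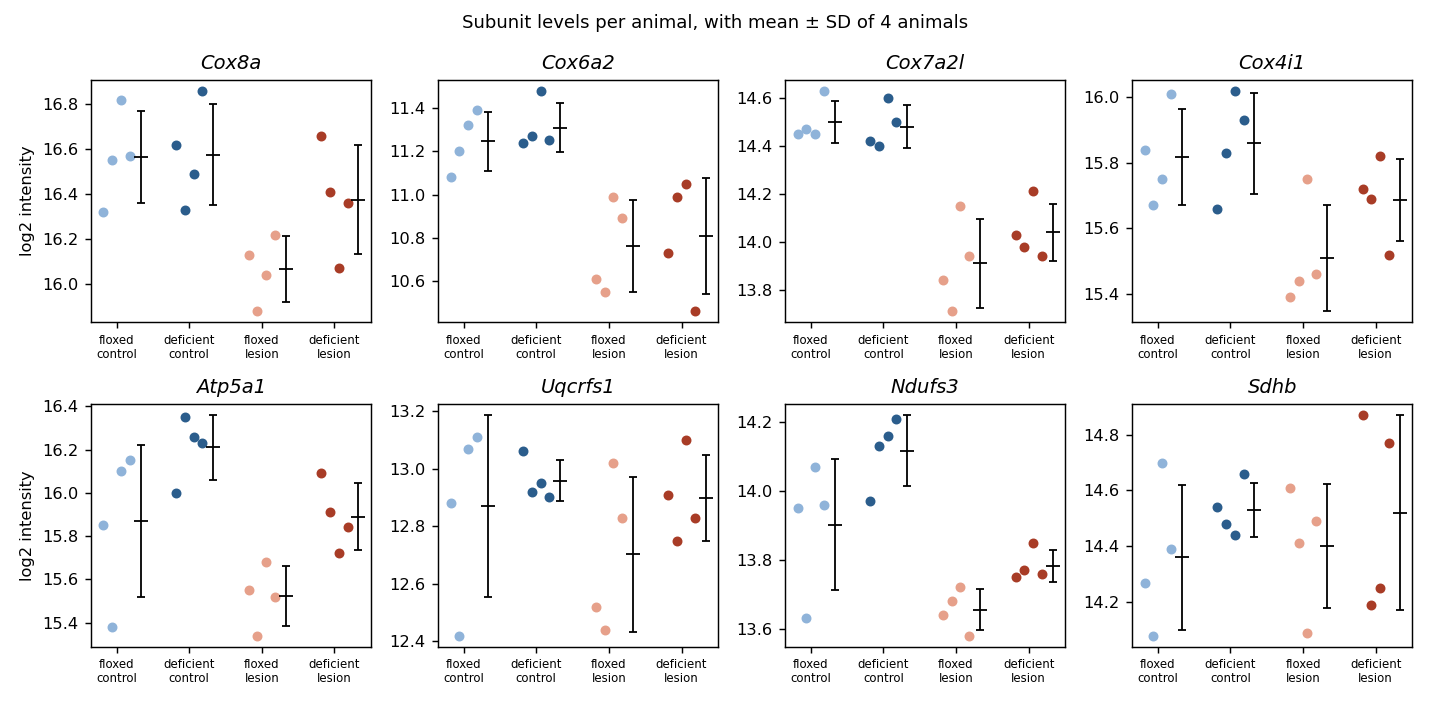
Levels of 8 subunit genes in each of the 16 mice, as log2 channel intensity after normalization (vertical axis, a separate range for each gene), by group (horizontal axis). Points are animals in the order 1 to 4, and bars are the mean ± SD of 4 animals. Cox6a2 and Cox7a2l separate cryolesioned from control mice, Cox8a does so in floxed mice, and Sdhb overlaps in all groups.

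In complex I, 4 of 37 genes were lower and the median was -0.19. Ndufs3, a core subunit of the peripheral arm, read 13.95, 13.63, 14.07 and 13.96 in floxed controls and 13.97, 14.13, 14.16 and 14.21 in the controls lacking microglial Il6. After cryolesion it read 13.64, 13.68, 13.72 and 13.58 in floxed and 13.75, 13.77, 13.85 and 13.76 in Il6-deficient mice. Every cryolesioned mouse lay below 7 of the 8 controls, and floxed control animal 2, at 13.63, lay among the cryolesioned mice. Ndufs3 changed by -0.36 ± 0.08 with limma's adjusted p = 0.0291. The accessory subunits Ndufb11, Ndufc1 and Ndufa5 changed by -0.34 ± 0.07, -0.34 ± 0.08 and -0.31 ± 0.08 (limma's adjusted p = 0.0241, 0.0382 and 0.0454). The 37 genes ran from -0.45 to 0.035, and 35 of them were below 0. Ndufb11 is 1 of 3 members on the X chromosome, with Ndufa1 and Cox7b.

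Among core subunits of complex I, Ndufv1 and Ndufs1 did not pass. Ndufv1, which holds the flavin, had -0.36 ± 0.11 (limma's adjusted p = 0.0828) and Ndufs1, which holds iron-sulphur clusters, -0.28 ± 0.09 (limma's adjusted p = 0.0988). Ndufa13, an accessory subunit, had the lowest value of complex I, -0.45 ± 0.12, and was lower on all 4 arrays, but did not pass (limma's adjusted p = 0.0559). Its levels were 15.45 to 16.04 in floxed controls, 15.78 to 16.12 in Il6-deficient controls, 15.37 to 15.54 in floxed cryolesioned and 15.62 to 15.87 in Il6-deficient cryolesioned mice.

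Complex II, succinate dehydrogenase, had 0 of 4 genes past the threshold and a median of -0.16, with 1 gene at an unadjusted p under 0.05 in limma. The flavoprotein Sdha had -0.26 ± 0.09 (limma's adjusted p = 0.0989) and the iron-sulphur subunit Sdhb -0.040 ± 0.15 with a 95% interval of -0.40 to 0.32. The membrane anchors Sdhc and Sdhd had -0.17 ± 0.11 and -0.16 ± 0.08. In complex III, 1 of 8 genes was lower and the median was -0.25. The Rieske iron-sulphur protein Uqcrfs1 read 12.88, 12.42, 13.07 and 13.11 in floxed controls and 13.06, 12.92, 12.95 and 12.90 in the controls lacking microglial Il6. After cryolesion it read 12.52, 12.44, 13.02 and 12.83 in floxed and 12.91, 12.75, 13.10 and 12.83 in Il6-deficient mice. Both states overlapped, and the log2 change was -0.29 ± 0.07 with limma's adjusted p = 0.0458. When each channel was fitted on its own, Uqcrfs1 had -0.15 and did not pass (limma's adjusted p = 0.299). The core proteins Uqcrc1 and Uqcrc2 had -0.17 ± 0.09 and -0.26 ± 0.11, and the hinge protein Uqcrh had -0.27 ± 0.08. None of these 3 passed (limma's adjusted p = 0.294, 0.194 and 0.067).

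In complex V, 4 of 17 genes were lower and the median was -0.21. Atp5a1, the alpha subunit of the catalytic head, read 15.85, 15.38, 16.10 and 16.15 in floxed controls and 16, 16.35, 16.26 and 16.23 in the controls lacking microglial Il6. After cryolesion it read 15.55, 15.34, 15.68 and 15.52 in floxed and 16.09, 15.91, 15.72 and 15.84 in Il6-deficient mice. The states overlapped through floxed control animal 2 and the Il6-deficient cryolesioned mice. Atp5a1 changed by -0.57 ± 0.14 with limma's adjusted p = 0.0416, and by -0.38 in the fit of each channel on its own (limma's adjusted p = 0.0146). Its second, dimmer probe gave -0.25 and did not pass. The gamma subunit Atp5c1, the delta subunit Atp5d and the stalk subunit Atp5j changed by -0.36 ± 0.09, -0.30 ± 0.06 and -0.30 ± 0.06 (limma's adjusted p = 0.0474, 0.0236 and 0.0249). The catalytic beta subunit Atp5b had -0.44 ± 0.15 and did not pass (limma's adjusted p = 0.12), and its 3 probes spanned 0.34 on the log2 scale, the widest range among 17 genes with several tested probes. Probes of the same gene had opposite signs in 5 of those 17 genes. All probes passed in 0 of them, and some but not all passed in 2, Atp5a1 and Ndufa5. The genes of complex V ran from -0.57 to -0.062, all 17 below 0, and Atp5g1, a form of the c ring, was the closest to 0.

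The number of genes past the threshold depended on single arrays and settings, as follows. It was 8 without the first and 28 without the second control-side array, where 3.62% and 9.75% of all features were called lower. It was 2 without either floxed-lesion array, against 2.15% and 1.31% of all features lower, and 3 without the second lesion-side array, against 3.04%. It was 8 without the first deficient-lesion array and 1, Cox8a, without the second, against 4.91% and 1.05%. With sex as a covariate it was 5, against 3.84%, and with median centring 2, against 4.68%. As shares of the 82 genes, counts of 1, 2, 3, 5, 8 and 28 are 1.22%, 2.44%, 3.66%, 6.1%, 9.76% and 34.1%. With a normexp offset of 16 and with the authors' table the count was 5, against 5.54% and 5.34% of all features lower. With processed intensities it was 2, against 3.79%. The subunit genes were therefore close to the share of all features without the first floxed-lesion, the second lesion-side or the second deficient-lesion array. They were also close to it with an offset of 16 and with the authors' table, and below it with processed intensities and with median centring. When each channel was fitted on its own, 23 genes or 28% were called lower, against 15.5% of all features. In that fit all 15 genes were below 0, from -0.54 to -0.15, and 13 of them passed. Uqcrfs1 and Atp5c1, at -0.23 with limma's adjusted p = 0.0607, did not. All 15 genes stayed below 0 in each of 18 alternative settings, and the call held in 17 settings for Cox6a2, 16 for Cox8a, 14 for Cox7a2l and 3 to 9 for the other 12 genes.

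**Figure D3:**
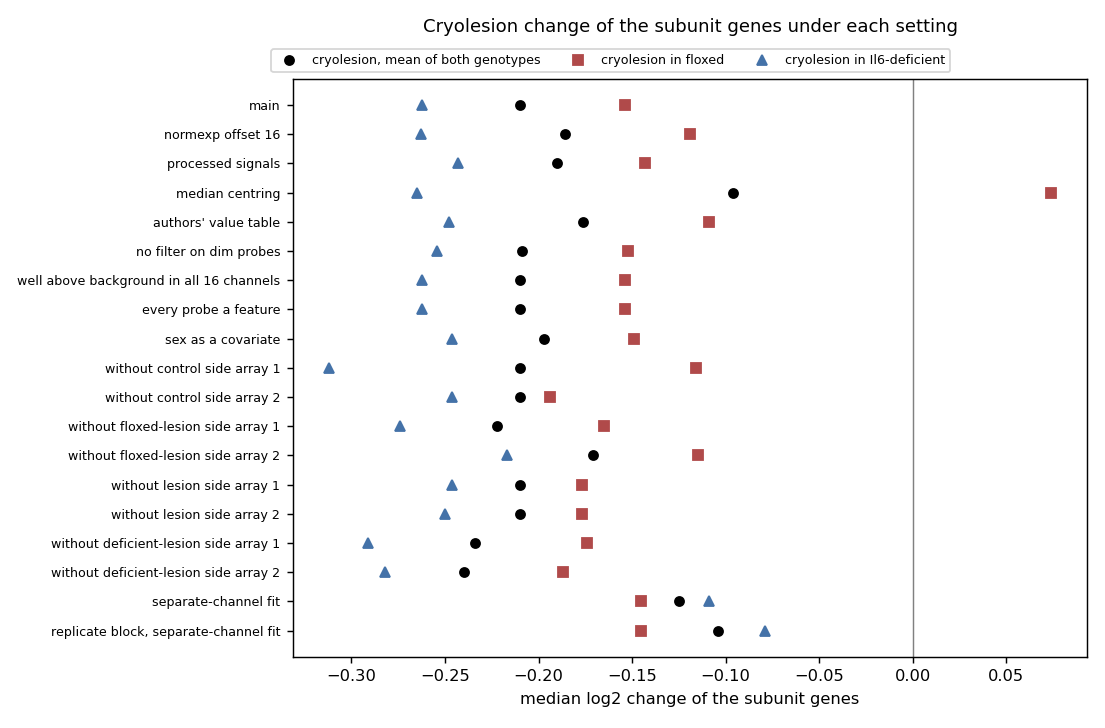
Median log2 change of the subunit genes after cryolesion (horizontal axis) under the main and each alternative setting (vertical axis), for the mean of both genotypes, floxed mice and Il6-deficient mice. All medians of the mean and of the Il6-deficient mice lie below 0, and the median of floxed mice lies above 0, at 0.074, with median centring.

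Levels were then read by animal. The median deviation of the 82 genes from their mean over the 16 mice was 0.051, -0.17, 0.11 and 0.14 on the log2 scale in floxed controls 1 to 4. It was 0.032, 0.017, 0.089 and 0.11 in the Il6-deficient controls. It was -0.22, -0.23, 0.065 and -0.055 in floxed cryolesioned mice, and 0.031, -0.030, 0.043 and -0.022 in Il6-deficient cryolesioned mice. Floxed control animal 2 stood apart from the other 7 controls, and floxed cryolesioned animals 1 and 2, on the floxed-lesion side, were the lowest of the 16. In complex IV floxed control animal 2 was not low, and all 4 floxed controls lay between 0.043 and 0.23. Floxed control animal 2 was the 1 floxed control without Xist above background, and its array partner was the 1 Il6-deficient control with it. The part of sex in these values was not tested beyond the covariate fit, in which only the second control-side array separated sex from the groups. The arrays of the loop showed the same unevenness. The median oriented ratio of the subunit genes was -0.33 and -0.32 on the floxed-lesion arrays but -0.035 and -0.19 on the deficient-lesion arrays.

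**Figure D4:**
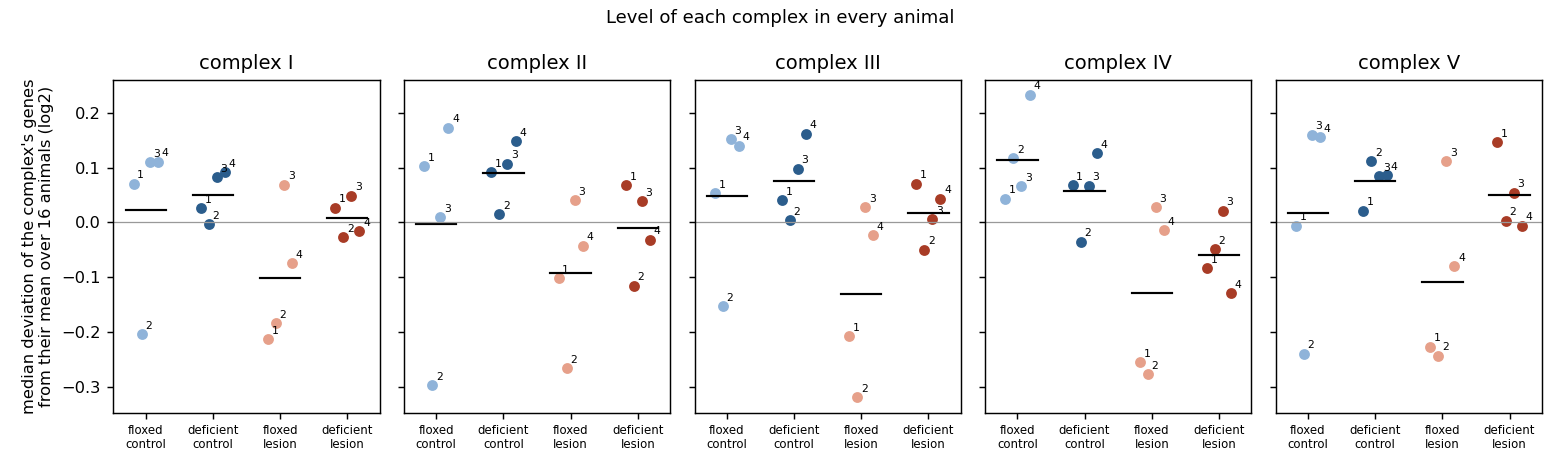
Level of each complex in every animal, as the median log2 deviation of its genes from their mean over 16 mice (vertical axis), by group (horizontal axis). Points are animals numbered as in the labels and horizontal bars are group means. Floxed control animal 2 is the lowest control in complexes I, II, III and V, but not in complex IV.

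Within each genotype, 1 subunit gene passed. In floxed mice Cox8a fell by 0.75 on the log2 scale, with an SE of 0.10 and limma's adjusted p = 0.0151. That is 1.22% of the subunit genes, against 3.05% of all features and 1.19% of all features lower. In Il6-deficient mice Cox6a2 fell by 0.79, with an SE of 0.13 and limma's adjusted p = 0.0348, which is 1.22% against 2.73% of all features and 1.07% lower. These shares are at or below the background. The median change was -0.15 in floxed and -0.26 in Il6-deficient mice by the ratio fit. When each channel was fitted on its own, the medians were -0.15 and -0.11, so their order turned. At an unadjusted p under 0.05 in limma, 15 genes were lower in floxed mice and 35 in Il6-deficient mice, or 18.3% and 42.7% against 10% and 9.57% of all features lower. These counts turned too in the fit of each channel, to 25 in floxed and 19 in Il6-deficient mice, or 30.5% and 23.2% against 16.1% and 13.7%. Without single arrays the count ranged from 0 to 6 in floxed mice, where it was 6, or 7.32% against 4.42% of all features lower, without the second control-side array. It was 4, or 4.88% against 0.957%, without the first deficient-lesion array. It was 0 without the first control-side, the first floxed-lesion, the second lesion-side or the second deficient-lesion array. In Il6-deficient mice it was 3, or 3.66% against 1.32% of all features lower, without the first deficient-lesion array, and 0 without any 1 of the other arrays except the second control-side array.

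The difference between the genotypes in their cryolesion change was tested as an interaction, and 0 subunit genes and 0 of all features passed in limma. At an unadjusted p under 0.05, 3 subunit genes, 3.66% against 3.31% of all features, were past it. Uqcrfs1 had -0.067 ± 0.10 in floxed and -0.50 ± 0.10 in Il6-deficient mice, with an interaction of -0.44 ± 0.14. Its animals' levels did not show this. Their means went from 12.87 to 12.70 in floxed and from 12.96 to 12.90 in Il6-deficient mice, and when each channel was fitted on its own the interaction was -0.010 (unadjusted p = 0.963 in limma). Ndufb3, an accessory complex I subunit, had -0.027 ± 0.11 and -0.44 ± 0.11, with -0.41 ± 0.16. Its mean levels went from 13.20 to 13.12 and from 13.27 to 13.16, and the interaction in the fit of each channel was -0.10 (unadjusted p = 0.536 in limma). Cox8a went the other way, with -0.75 ± 0.10 and -0.39 ± 0.10 and an interaction of 0.36 ± 0.14, and 0.31 in the fit of each channel (unadjusted p = 0.0459 in limma). For Cox7a2l the interaction was 0.003 with a 95% interval of -0.44 to 0.44. The median interaction of the subunit genes was -0.10. It was -0.34 with median centring, 0.035 in the fit of each channel on its own and 0.074 with the replicate number as a block in that fit, so that its size and direction depended on the setting.

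Il6 deficiency alone changed 0 subunit genes in controls, where 0 of all features passed in limma. There, 71 of 82 values were above 0, against 54.1% of all features, with a median of 0.13 against 0.012. When each channel was fitted on its own, the median was 0.040 with 53 above 0, and 0.030 with 50 above 0 with the replicate number as a block. Without single arrays the median ranged from 0.089 to 0.20, and it was 0.20 without the first control-side array. At an unadjusted p under 0.05, 10 genes were higher and 0 lower, or 12.2% higher against 2.82% of all features higher and 1.6% lower. They included 6 genes of complex V. Uqcrfs1 at 0.36 ± 0.09 and Atp5a1 at 0.44 ± 0.17 were among the 10, and had 0.15 and 0.36 in the fit of each channel. Floxed control animal 2 moves with this difference, since the median ratio was 0.17 on its array and -0.030 on the other control-side array. After cryolesion, 0 subunit genes and 0 of all features passed, the median was 0.042, and 2 genes, Cox8a at 0.34 ± 0.08 and Cox6a1 at 0.32 ± 0.13, were higher at an unadjusted p under 0.05, or 2.44% against 5.5% of all features. With median centring the median after cryolesion was -0.19, so its direction depended on the scaling, and in the fit of each channel it was 0.105. In the fit of each channel 65 of 82 values were above 0, and 0 genes passed the adjusted threshold. At an unadjusted p under 0.05 in limma, 11 were higher and 0 lower there. This is 13.4% higher, against 8.34% of all features, so the share below the background in the ratio fit lay above it. As the mean of both states, 0 subunit genes passed, against 0.00341% of all features, and 19 were higher and 2, Cox7a1 and Cox8b, lower at an unadjusted p under 0.05. These are 23.2% and 2.44%, against 9.36% and 4.76% of all features. With sex as a covariate 9 genes, or 11%, were higher at an adjusted p under 0.05 in limma, and the share of all features past it rose to 5.39%, with 3.96% higher. The 9 were Atp5a1, Atp5b, Atp5g3, Atp5h, Cox5a, Ndufa10, Ndufa13, Ndufs1 and Ndufv1. Their changes in that fit ran from 0.24 for Ndufa10 to 0.47 for Atp5a1. Only the second control-side array, which holds floxed control animal 2, separated this covariate from the groups. The sex term, and with it these 9 calls, therefore rests on that array.

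Genes around the complexes were read from lists. Of 16 measured genes of the tricarboxylic acid cycle and pyruvate dehydrogenase, which feed electrons to the chain, 3 were lower and 0 higher after cryolesion, with a median of -0.26 and 16 of 16 below 0. They included Idh3g, a subunit of isocitrate dehydrogenase, at -0.50 ± 0.09, and Sucla2, a succinyl-CoA ligase subunit, at -0.46 ± 0.08 (limma's adjusted p = 0.019 and 0.0167). Of 5 electron carriers and further components, Atpif1, the inhibitor of the ATP synthase, and Dmac2, a complex I assembly protein, were lower, at -0.48 ± 0.09 and -0.29 ± 0.07 (limma's adjusted p = 0.0207 and 0.0414). Of 44 assembly factors 1 was lower, Cox14 at -0.36 ± 0.09 (limma's adjusted p = 0.0422), and the list's median was -0.046. Of 15 genes of the mitochondrial membranes 0 passed, with 0 lower and 2 higher at an unadjusted p under 0.05 in limma, and the median was -0.054. Of 13 regulators of mitochondrial gene expression, 1 was lower and 1 higher. The nuclear receptor Esrrg changed by -0.79 ± 0.14 and the coactivator Pprc1 by 0.51 ± 0.12 (limma's adjusted p = 0.0146 and 0.0406). Nrf1 and Gabpa, whose motifs are marked in the promoters printed above, had -0.001 ± 0.10 and -0.011 ± 0.09. No probe was named for any of the 13 subunits encoded by mitochondrial DNA.

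Markers of cell types moved with the same contrast. Of 12 neuronal markers 3 were lower and 0 higher, with a median of -0.35. They were Camk2a at -0.69 ± 0.11, Pvalb, a marker of fast-spiking interneurons, at -0.53 ± 0.10, and Map2 at -0.35 ± 0.08 (limma's adjusted p = 0.0114, 0.0209 and 0.0318). The summed neuronal signal spanned 17.52 to 18.01 in floxed controls, 17.90 to 18.15 in Il6-deficient controls, 17.31 to 17.53 in floxed cryolesioned and 17.38 to 18.04 in Il6-deficient cryolesioned mice on the log2 scale. Of 8 oligodendrocyte markers 2 were lower (median -0.44), and of 8 monocyte and macrophage markers 6 were higher (median 0.65) and 0 lower. The summed monocyte and macrophage signal spanned 12.41 to 12.45, 12.20 to 12.67, 12.87 to 13.97 and 12.67 to 13.23 in the same order of groups. Of 6 neutrophil markers 2 were higher and of 5 erythroid markers 0 passed, with 0 at an unadjusted p under 0.05 in limma. Of 8 astrocyte markers 2 were lower and 2 higher, and of 8 microglial markers 3 were lower and 3 higher. Of 8 endothelial and mural markers 2 were lower, although that list's median was 0.18. The part of these shifts in the subunit values was not tested.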

How the data were processed

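Total RNA of 16 mice was hybridised on 8 Agilent 2-colour arrays. Per the file headers, the authors' scanner files, made with Agilent Feature Extraction 10.7.3.1 per the submitters' processing notes, hold median spot and background intensities and dye-normalized processed intensities, and the deposited log10 ratio of red over green served only to fix direction. The authors' deposited value table holds log2 ratios whose normalization and exact scaling are not given in the sources used here. Each column ran in the direction of red over green, with a correlation of 0.930 to 0.962 and a slope of 1.17 to 1.39 against the loess ratios. The medians of its columns, array 1 before array 2, were 0.0030 and -0.0045 (control side), 0.0021 and 0.0019 (floxed-lesion side), 0.0050 and 0.0029 (lesion side), and 0.0043 and -0.0015 (deficient-lesion side).

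Background was corrected with normexp (offset 50), ratios were normalized by loess with control and flagged spots (115 to 194 per array) at weight 0, and spots of a probe were averaged. Probes well above background in at least 4 of 16 channels were kept. RefSeq accessions were matched to a RefSeq gene table of GRCm38.p6, which named 32994 of 56605 probes. The brightest probe stood for a gene with several (18 subunit genes). limma 3.58.1 in R 4.3.3 fitted 29362 features with 3 group coefficients and a dye intercept, with 4 residual and 2.95 prior degrees of freedom and Benjamini-Hochberg adjustment over all features. The step was tested on simulated data. Levels per animal are log2 intensities of its channel, taken after loess and an Aquantile step between arrays, and replicates are those the labels name as biological. The dye effect of each gene, which the ratio fit takes out, was not removed from these levels. Each group holds animals of both dyes, so comparisons of single animals mix dye with animal. The number of arrays limits the precision.

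Genes named with values were those past the threshold, the 3 of largest change per complex, core subunits, isoform sets and genes whose probes differed in a call. Values of 2 genes are not reported here, though the counts and medians include them. Ndufb3 was chosen after its values were seen. Members and lists were chosen with earlier results of these data known. The 4 printed promoters were chosen after the values were seen. Alternatives were another offset, processed intensities, median centring, the authors' table, other filters, every probe as a feature, fits of separate channels with and without a replicate block, sex as a covariate, leaving out each array, and a threshold of 0.1.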

Additional observations from a re-analysis of the deposited data

Results flagged for a closer look

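Of 136 groups of 4 animals checked, over 34 subunit genes, 7 held an animal far from the other 3, and chance flags about 1 in 20 groups. The dye effect of each gene was not removed before this check. Floxed control animal 2 accounted for 2 of them. It was low for Uqcrc2, at 13.07 (log2 intensity) against 13.54 to 13.63 in the other floxed controls, and for Atp5c1, at 14.45 against 15.08 to 15.12. Floxed cryolesioned animal 2 was low for Sdha, at 12.55 against 12.72 to 12.74. Il6-deficient cryolesioned animal 4 was high for Uqcrh, at 15.48 against 15.29 to 15.30, and animal 3 of that group was low for Cox4i2, at 7.82 against 7.91 to 7.92. Il6-deficient control animal 3 was high for Cox6a2, at 11.48 against 11.24 to 11.27. Floxed control animal 4 was high for Cox7a2l, at 14.63 against 14.45 to 14.47.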

How the results depend on the processing

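For cryolesion over both genotypes, the 15 subunit genes past the threshold became 5 with a normexp offset of 16, 2 with processed intensities, 2 with median centring, 5 with the authors' table and 5 with sex as a covariate. As shares of the tested subunit genes these are 6.1%, 2.44%, 2.44%, 6.1% and 6.1%. The shares of all features called lower were 5.54%, 3.79%, 4.68%, 5.34% and 3.84%, in the same order. The 15 genes became 23 in the separate-channel fit, or 28% against 15.5% of all features lower, and 31 at an adjusted p under 0.1. Shares of all features at an adjusted p under 0.1 are not given here. Leaving out 1 array gave 1 to 28, or 1.22% to 34.1%, all lower. Of all features, 1.05% to 9.75% were then called lower, and 3.16% to 17.6% passed in either direction. In floxed mice the 1 gene became 0 with processed intensities and 0 with median centring, against 0.249% and 0.381% of all features lower. The count was 3 with sex as a covariate and 8 in the separate-channel fit. These are 3.66% and 9.76%, against 1.08% and 8.43% of all features lower. At an adjusted p under 0.1 it was 5, and leaving out 1 array gave 0 to 6. In Il6-deficient mice the 1 gene became 0 with processed intensities, against 0.303% of all features lower. The count was 2 without the filter on dim probes, where 1.34% of all features passed in either direction. In the separate-channel fit it was 5, or 6.1% against 5.03% of all features lower. At an adjusted p under 0.1 it was 9, and leaving out 1 array gave 0 to 3. For Il6 deficiency as the mean of both states, the count of 0 became 9 with sex as a covariate, where 5.39% of all features passed against 0.00341% without it. That covariate was separated from the groups by the second control-side array alone. Apart from the replicate block given next, every other setting kept counts within 1.5 times the main value, for these contrasts, the other genotype contrasts and the interaction. With the replicate number as a block in the separate-channel fit, the counts were 25 over both genotypes, 13 in floxed and 5 in Il6-deficient mice. These are 30.5%, 15.9% and 6.1%, against 16.3%, 9.31% and 5.41% of all features lower. The labels do not say that a number pairs animals, and animals of the same number on different arrays had deviations correlated at 0.104 on average, from -0.244 to 0.529. The causes of these changes were not tested, apart from fewer arrays where 1 was left out. With 4 animals in a group, all of them bulk tissue, precision is limited by the number of arrays, and dim probes such as Cox8b lie close to background.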
